A study of Auricularia auricula-judae with 2 samples.

Results

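Iron, copper and zinc genes were described in the wood-ear mushroom Auricularia auricula-judae, in fruit bodies grown from irradiated or unirradiated mycelium. They were taken as the assembled genes with at least 1 transcript whose description, from its closest Swiss-Prot protein, names metal uptake, metal transport, a metal chaperone or iron-sulfur assembly. Proteins described as ubiquinone or cytochrome b-c1 components were left out. The rule reads descriptions and no measured value, but it was set with earlier results of these data known. The patterns met 136 transcripts of 100 assembled genes, out of 57717 transcripts and 43428 genes in all. By role they held 27 genes of iron reduction, oxidation and transport, 11 of siderophore transport and its regulation, 25 of copper, 19 of zinc, 13 of iron-sulfur assembly and 5 others. The words frataxin, metallothionein and manganese transporter met 0 transcripts.

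The control fruit bodies came from mycelium that was not irradiated, and the irradiated fruit bodies from mycelium given 200 Gy of gamma rays after 14 days on agar at 25 °C. Both groups then grew for 30 days at 25 °C in sawdust with rice bran and were fruited at 18 °C and 90% humidity, so the RNA describes tissue formed after the exposure. The labels name the species and no strain, and do not say how many fruit bodies went into a library. Each group had 1 library of total RNA from whole fruit bodies, so replicate spread is unknown and the groups could not be tested against each other. In such bulk tissue, fewer cells of a type and less RNA per cell cannot be told apart.

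Fungi take up iron mainly along a reductive and a siderophore route. In the reductive route a surface ferric reductase turns ferric into ferrous iron, and a multicopper oxidase paired with the permease Ftr1 carries it in. In the siderophore route small iron chelators are imported with their iron by dedicated transporters. The oxidase needs copper, which enters through Ctr proteins and is loaded in the secretory pathway by a copper-pumping ATPase. Zinc enters through ZIP proteins such as Zrt1 and is moved into compartments by cation diffusion proteins, and much cellular iron ends in heme and in iron-sulfur clusters.

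Levels are FPKM, fragments per kilobase of transcript and per library size, summed over the isoforms of each gene. The summed FPKM of the 2 libraries were 970111 and 983895, and the sources used here give no raw read totals. The authors' pair of scaled values, which behave as estimated reads, summed to about 8872430 and 8404060 over all transcripts. The sum of the pair over a gene, here named scaled reads, serves as the measure of depth. A ratio is log2 of irradiated over control FPKM, with 1 FPKM added to each, so 1 means 2-fold higher. Each ratio is set beside an exact 95% interval of the ratio of the scaled values, which covers counting error only and not the division of reads among isoforms.

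Of the 100 metal genes, 22 had 100 or more scaled reads and held 97.2% of the set's scaled reads. A further 9 had 20 to 99, and 69 had under 20. Of the 22, 3 were higher by 2-fold or more in irradiated fruit bodies and 1 was lower by as much. Among all 8249 genes of that depth, 9.32% were higher by 2-fold or more and 8.68% were lower. The median log2 ratio of the 22 was 0.14, beside 0.10 for all 8249 genes. With 12 genes above and 10 below a log2 ratio of 0, these counts and the median do not set the metal genes apart from all genes, and the differences lie in single genes, given here by role.

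**Figure D1:**
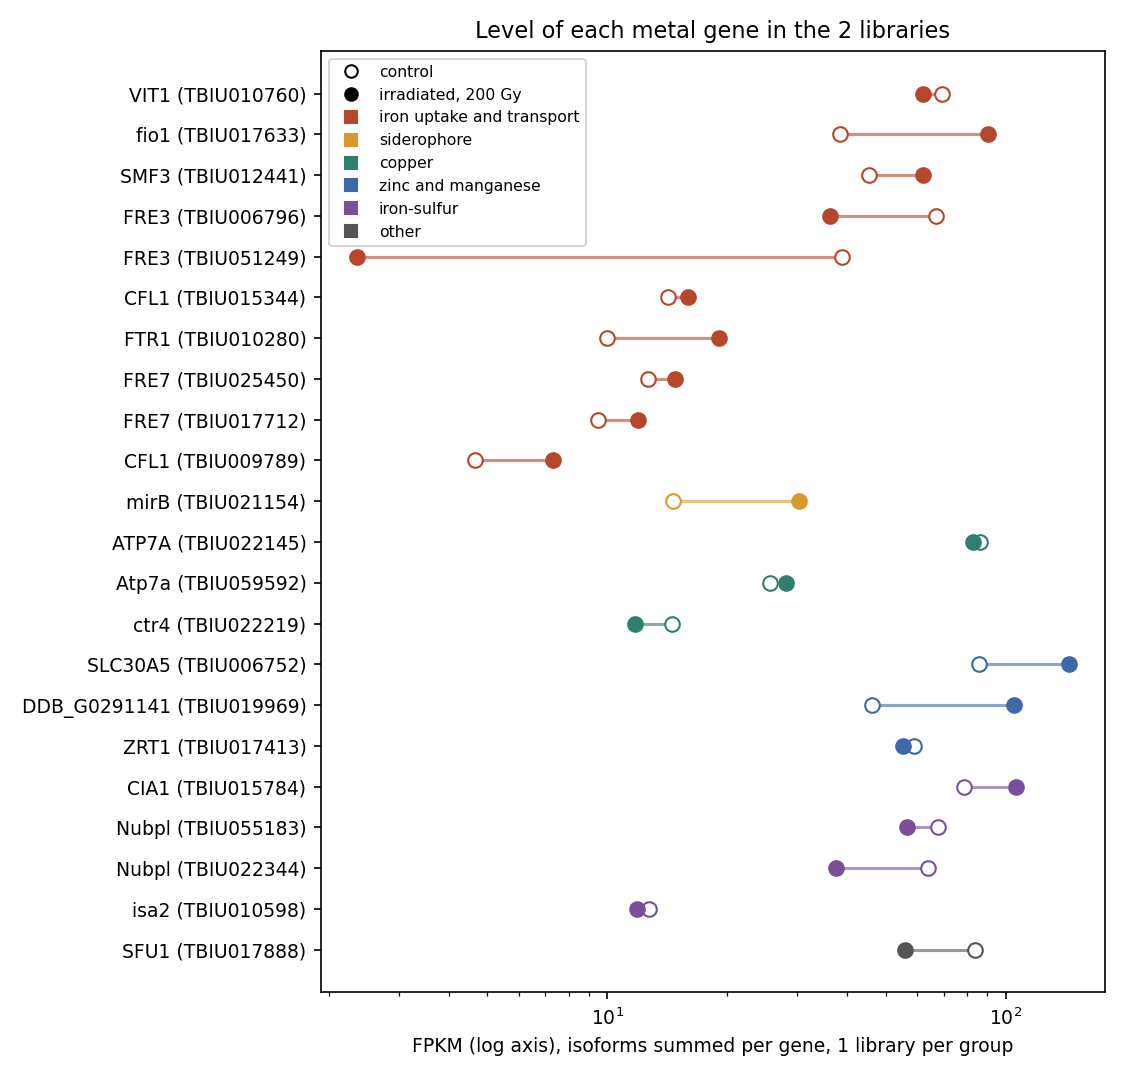
FPKM on a log axis, isoforms summed, of the 22 metal genes with 100 or more scaled reads; open circles are the control library, filled circles the irradiated library, and colours mark roles. The FRE3 gene TBIU051249 has by far the widest gap, from 38.8 FPKM in the control to 2.35 in the irradiated library, while most other pairs lie close together.

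Ferric reductases differed among themselves. The gene described as ferric reductase transmembrane component 3 (FRE3, TBIU051249), which in budding yeast reduces siderophore-bound iron, had 38.8 FPKM in control and 2.35 FPKM in irradiated fruit bodies. Its log2 ratio was -3.57, with a counting interval of -5.62 to -2.97, the lowest ratio of the 22 genes. It rested on 112 scaled reads, close above the minimum of 100, and its length implied by FPKM and scaled reads was 308 bases, shorter than a whole ferric reductase coding sequence. The authors' p-values and q-values, from an unstated test with 1 library per group, are not used for this or any other gene.

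A second and deeper FRE3 gene (TBIU006796) had 67.0 FPKM in control and 36.2 FPKM in irradiated fruit bodies, a log2 ratio of -0.87. Its interval of -0.56 to -0.24 did not reach that ratio, so the FPKM gap of this gene exceeds that of its reads. The FPKM gap came mostly from 1 of its 3 isoforms. The long isoform (TBIU006796, implied length 1918 bases), with 87.8% of the gene's scaled reads, had 36.1 and 33.4 FPKM (log2 ratio -0.11). An isoform of 486 implied bases with no description (TBIU006797) had 30.9 FPKM in control and 0.79 FPKM in irradiated fruit bodies (log2 ratio -4.15, interval -7.77 to -3.89). The third isoform (TBIU006798), also described as FRE3, was listed at 0 in control and 2.02 FPKM in irradiated fruit bodies. It had 24.5 scaled reads. The described isoforms summed had a log2 ratio of -0.03. So the described forms of this reductase together were at nearly the same level in both libraries, and the gap lay in a short form. The fragment TBIU051249 showed a similar pair of levels to that short form. Whether those transcripts derive from 1 locus was not tested.

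The other reductase genes with 100 or more scaled reads were within 2-fold. The more abundant gene described as CFL1, a ferric reductase of Candida albicans (TBIU015344), had 14.2 and 16.0 FPKM in control and irradiated fruit bodies (log2 ratio 0.16). A lower CFL1 gene (TBIU009789) had 4.67 and 7.33 FPKM (log2 ratio 0.55, interval 0.14 to 1.03). FRE7, a ferric and cupric reductase of budding yeast, named a gene (TBIU025450) with 12.7 and 14.8 FPKM and a log2 ratio of 0.21. The other FRE7 gene (TBIU017712) had 9.5 and 11.97 FPKM (log2 ratio 0.30). All 4 had more FPKM in the irradiated library, but the counting intervals of 3 of them, CFL1 TBIU015344 and both FRE7 genes, covered 0. Within the FRE7 gene TBIU025450 the leading isoforms went opposite ways, at 5.63 and 3.18 FPKM for TBIU025450 and 2.71 and 5.33 FPKM for TBIU025447. Those of the FRE7 gene TBIU017712 did so too, at 5.44 and 4.59 FPKM for TBIU017712 and 3.86 and 5.38 FPKM for TBIU017713.

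The deep Ftr1 permease gene was higher by less than 2-fold, while the gene named for its partner oxidase was mostly laccase. The permease gene (FTR1, TBIU010280) had 9.99 FPKM in control and 19.1 FPKM in irradiated fruit bodies, a log2 ratio of 0.87 with an interval of 0.52 to 1.18. All 3 of its isoforms were higher, at log2 ratios of 0.83, 0.57 and 0.95. The gene carrying the name fio1 (TBIU017633), after the iron transport multicopper oxidase of fission yeast, had 38.4 and 90.5 FPKM, a log2 ratio of 1.22 with an interval of 0.96 to 1.25. Its name applies to little of it. Of its 9 isoforms, 8 are described as laccases, related multicopper oxidases that oxidise phenols, and the isoform described as fio1 held 2.79% of the gene's scaled reads. That fio1 isoform had 3.18 FPKM in the control and was listed at 0 in irradiated fruit bodies, the opposite direction to the summed gene. The isoform with the most reads, a laccase-2 (TBIU017636), had 22.3 and 48.2 FPKM. Without it and the other laccase isoforms the gene had under 100 scaled reads, so 2 of 21 metal genes were then higher by that measure.

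**Figure D2:**
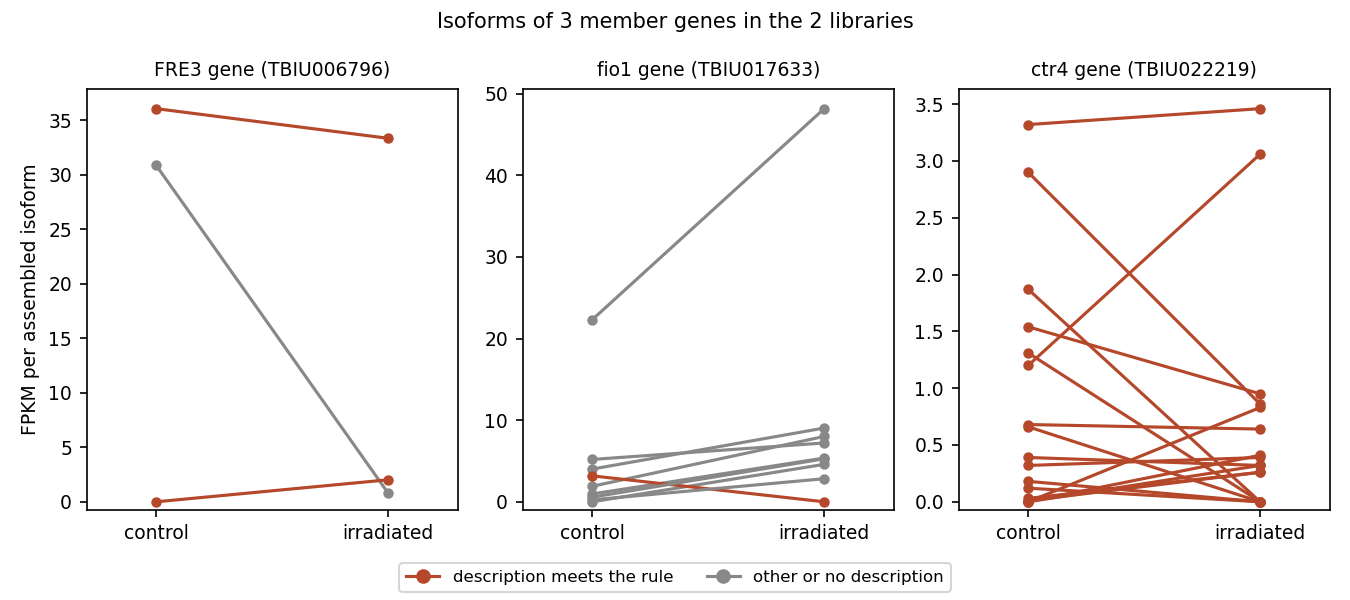
FPKM of each assembled isoform of the FRE3 gene TBIU006796, the fio1 gene TBIU017633 and the ctr4 gene TBIU022219 in the control and irradiated libraries, with a line per isoform; red lines meet the metal description and grey lines do not. In the first 2 panels the large difference lies in grey isoforms, and in the ctr4 panel the red lines cross.

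Iron transporters of inner membranes differed little. SMF3, an Nramp transporter that exports iron from the yeast vacuole (TBIU012441), had 45.4 FPKM in control and 61.9 FPKM in irradiated fruit bodies (log2 ratio 0.44, interval 0.23 to 0.51). VIT1, which loads iron into the plant vacuole (TBIU010760), had 69.3 and 61.9 FPKM (log2 ratio -0.16, interval -0.44 to -0.03). SFU1, a GATA factor that represses iron uptake genes in Candida albicans (TBIU017888), had 83.7 and 56.0 FPKM, a log2 ratio of -0.57 with an interval of -0.82 to -0.49. SFU1 was thus the lower of these by ratio, and its level stayed within 2-fold.

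Siderophore transporters were expressed at low levels. A gene described as mirB (TBIU021154), a siderophore transporter of Aspergillus, had 14.7 FPKM in control and 30.4 FPKM in irradiated fruit bodies. Its log2 ratio of 1.0 lay on the 2-fold line, and the interval of 0.50 to 1.46 reached well below it. The gene was read from 166 scaled reads over 430 implied bases. The remaining siderophore genes had under 100 scaled reads, and those named str3, after a siderophore transporter of fission yeast, went both ways. One str3 gene (TBIU011170) had 1.89 and 4.79 FPKM, with an interval of 0.38 to 2.15. A second (TBIU006218) had 3.52 and 1.08 FPKM, with an interval of -3.18 to -0.45. Another (TBIU008988) had 4.12 and 4.38 FPKM, with an interval of -0.84 to 0.84. These str3 genes had 29 to 56 scaled reads, so only large gaps could show at this depth.

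Copper genes showed the smallest differences of the roles with more than 1 deep gene. The copper-pumping ATPase gene (ATP7A, TBIU022145), whose human counterpart loads copper onto secreted enzymes, was the deepest metal gene, with 4740 scaled reads. It had 86.2 FPKM in control and 83.1 FPKM in irradiated fruit bodies (log2 ratio -0.05, interval -0.22 to -0.05). A second such gene (Atp7a, TBIU059592) had 25.6 and 28.0 FPKM (log2 ratio 0.12). Its isoforms went opposite ways, TBIU059592 at 12.5 and 21.2 FPKM and TBIU059591 at 13.2 and 6.84 FPKM.

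The copper importer gene (ctr4, TBIU022219), named for a subunit of the high-affinity importer of fission yeast, had 14.5 and 11.8 FPKM, a log2 ratio of -0.28 with an interval of -0.73 to -0.10. It was assembled as 17 isoforms, of which 16 are described as ctr4 and 1 as its partner ctr5. The isoform with the most reads (TBIU022219) had 3.32 and 3.46 FPKM, the next (TBIU022215) 2.90 and 0.86 FPKM, and the next (TBIU022214) 1.2 and 3.06 FPKM. How reads were divided among so many isoforms is uncertain, so only the summed level is compared. The chaperones CCS1, which brings copper to superoxide dismutase, and COX17, which brings it to cytochrome oxidase, were met only by genes of under 20 scaled reads.

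Zinc transporters included the most abundant metal gene and a gene more than 2-fold higher in the irradiated library. A gene described as the zinc transporter DDB_G0291141 (TBIU019969), named for a Dictyostelium protein, had 46.3 FPKM in control and 105 FPKM in irradiated fruit bodies. Its log2 ratio was 1.17 and its interval 0.98 to 1.24, from 2209 scaled reads in a single isoform of 1705 implied bases. SLC30A5, whose human counterpart moves zinc into the secretory pathway (TBIU006752), was the most abundant metal gene at 85.7 and 144 FPKM (log2 ratio 0.75, interval 0.51 to 0.85). Both of these zinc genes were higher in the irradiated library, with intervals above 0.

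The zinc importers named ZRT, of the ZIP family, spanned a wide range. The deep ZRT1 gene (TBIU017413) is named for the high-affinity zinc importer of yeast. It had 58.9 FPKM in control and 55.2 FPKM in irradiated fruit bodies (log2 ratio -0.09, interval -0.35 to -0.03). Of its 5 isoforms, 1 (TBIU017412) is described as the sulfhydryl oxidase Gfer and had 17.8 and 17.6 FPKM. The 4 isoforms described as ZRT1 alone had a log2 ratio of -0.13. A weakly expressed zrt1 gene (TBIU001630) had 6.73 and 1.08 FPKM, with an interval of -4.05 to -1.49. ZRT2, a lower-affinity importer in yeast (TBIU001160), had 3.79 and 0.68 FPKM, with an interval of -4.05 to -1.23. Another weak gene, named ZRT1 (TBIU009091), went the other way at 0.18 and 1.91 FPKM, with an interval of 1.28 to 6.46. A further gene (ZRT1, TBIU011198) had 4.17 and 1.77 FPKM (log2 ratio -0.90), and its described isoform alone had 2.31 and 1.77 FPKM. The weak importers, at 22 to 57 scaled reads each, thus differed in both directions, and the deep one lay near 0.

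Over the 9 metal genes of 20 to 99 scaled reads, 2 were higher by 2-fold or more and 3 were lower. Among all 4303 genes of this depth, 15.1% were higher by that much and 17.6% were lower. The remaining genes of this depth were described as the copper ATPase Atp7b (TBIU065510), at 20.3 and 16.9 FPKM, and FRE4 (TBIU062183), at 57.9 and 53.6 FPKM. The FRE4 value comes from 61.1 scaled reads on a transcript of 63 implied bases, so its FPKM is high for its depth.

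**Figure D3:**
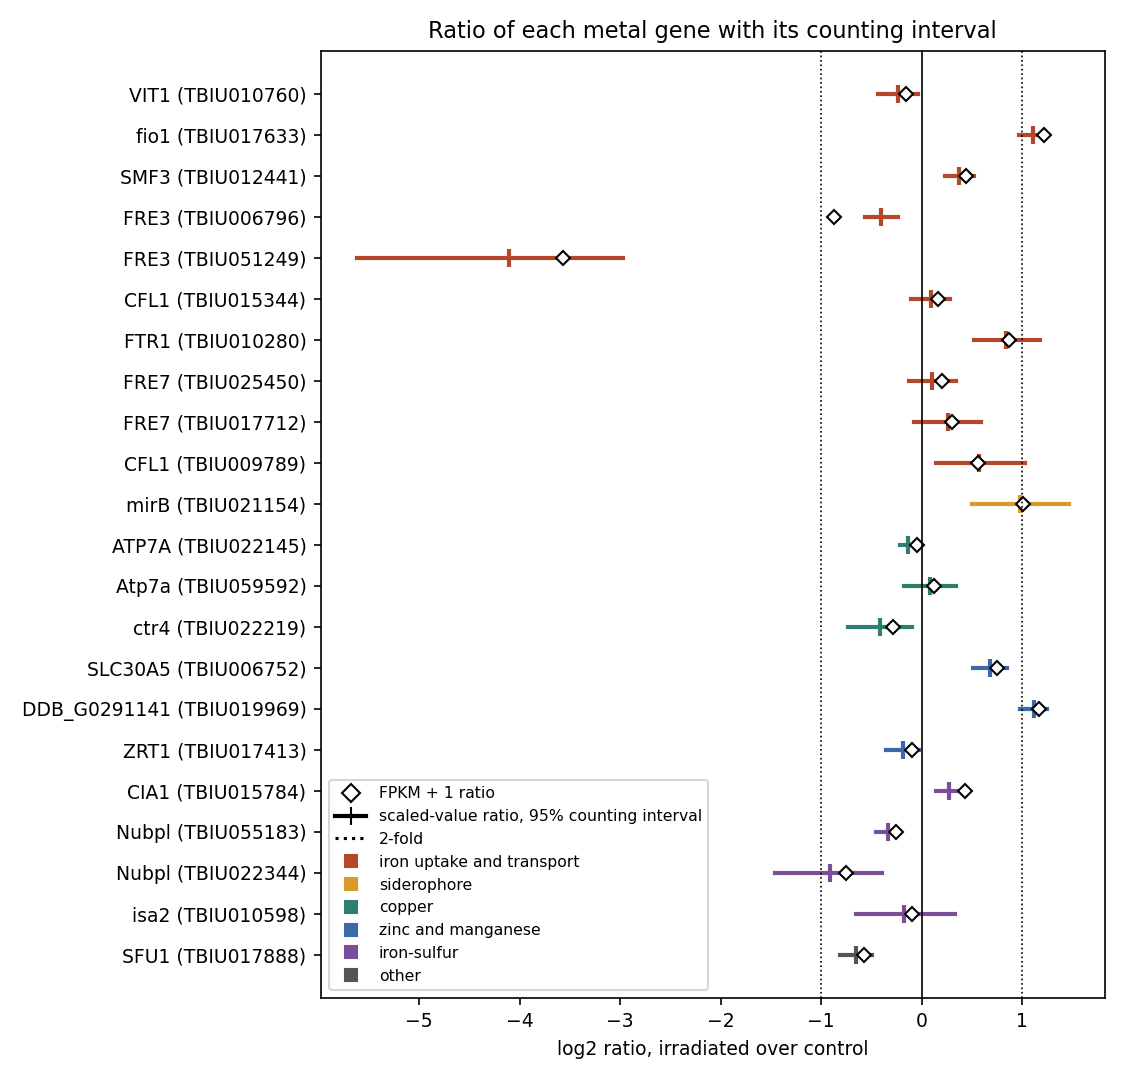
Log2 ratio, irradiated over control, of the 22 metal genes with 100 or more scaled reads; diamonds are FPKM + 1 ratios, ticks and bars the scaled-value ratio with its 95% counting interval, and dotted lines mark 2-fold. Bars of 8 genes lie above 0, of 9 below 0 and of 5 across it, and the bar of the FRE3 gene TBIU051249 is the one that lies wholly beyond the 2-fold lines.

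Of the 13 iron-sulfur assembly genes, the 4 with 100 or more scaled reads were within 2-fold. CIA1, a component of the cytosolic assembly machinery (TBIU015784), had 78.7 FPKM in control and 106 FPKM in irradiated fruit bodies (log2 ratio 0.43, interval 0.14 to 0.40). NUBPL, which delivers clusters to respiratory complex I, named a deep gene (Nubpl, TBIU055183) with 67.8 and 56.7 FPKM (log2 ratio -0.25, interval -0.46 to -0.21). A shallower Nubpl gene (TBIU022344) had 64.0 and 37.5 FPKM, a log2 ratio of -0.76 with an interval of -1.46 to -0.40. Most of its FPKM came from an undescribed isoform of 36 implied bases, and its described isoform alone had 11.2 and 6.09 FPKM. ISA2, a mitochondrial assembly protein (isa2, TBIU010598), had 12.8 and 11.9 FPKM (log2 ratio -0.10). So 1 of these 4 genes was above and 3 were below a ratio of 0.

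**Figure D4:**
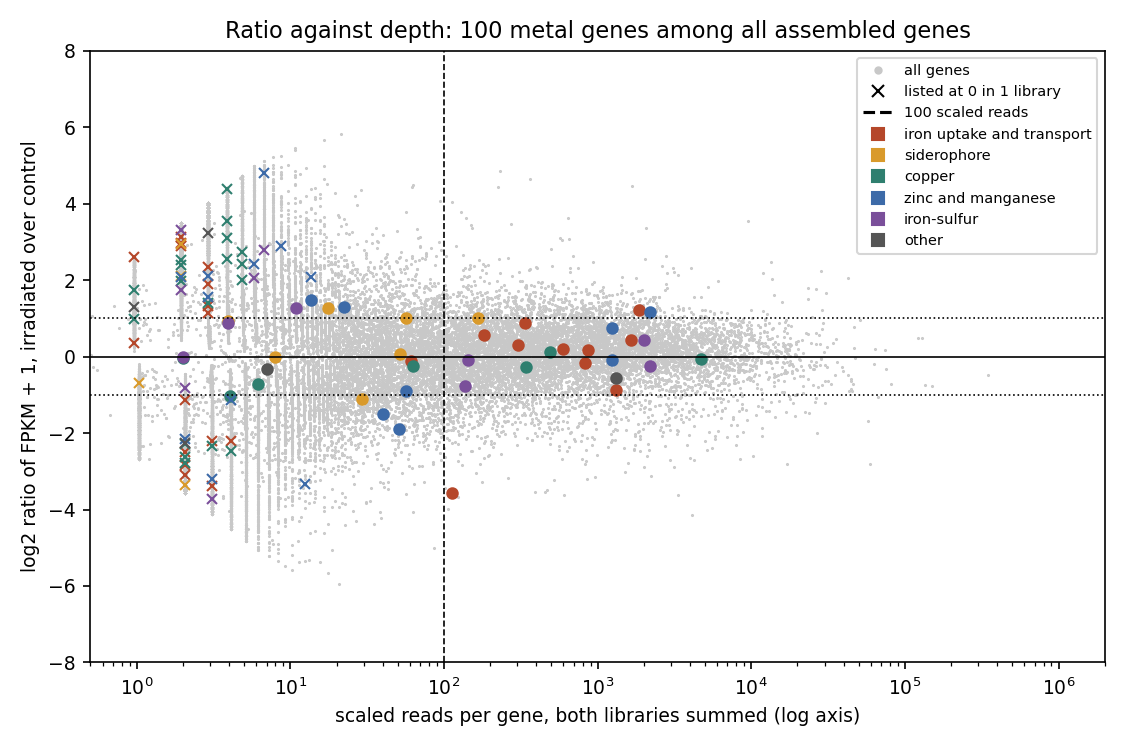
Log2 ratio of FPKM + 1 against scaled reads per gene on a log axis, for all assembled genes with reads (grey) and the 100 metal genes (coloured by role); crosses are metal genes listed at 0 in 1 library, and the dashed line marks 100 scaled reads. Wide ratios crowd the left side for metal genes and all genes alike, and right of the line the FRE3 gene at -3.57 lies far below the other metal genes.

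The 69 metal genes with under 20 scaled reads carry little information on a difference. Of these, 37 were listed at 0 in control and 21 in irradiated fruit bodies. Among all 30876 genes of this depth, 39.8% were listed at 0 in control and 32.4% in irradiated fruit bodies. Their median implied length was 94.2 bases, against 1592 bases for the 22 deep genes, so most were short pieces. Some pathway steps were named on such pieces alone. Both genes described as the oxidase FET3, both described as the vacuolar transporter FTH1 and both described as the siderophore regulator URBS1 had under 20 scaled reads. Short pieces named mirB (TBIU029480) and SFU1 (TBIU035000) had 9.20 and 0 FPKM, and 0 and 8.34 FPKM, in control and irradiated fruit bodies. No fold is given for these genes.

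Other genes of metal use, matched by description outside the metal set, were counted in the same way. Of 10 heme genes with 100 or more scaled reads, 0 were higher by 2-fold or more and 1 was lower, beside 9.32% and 8.68% of all genes, so these counts are near the background for so few genes. Their median log2 ratio was -0.10, with 3 genes above and 7 below 0. The highest ratio, 0.61, was that of coproporphyrinogen oxidase (HEM13, TBIU015153), at 95.8 and 147 FPKM in control and irradiated fruit bodies. Aminolevulinic acid dehydratase (HEM2, TBIU052789), an early step of heme synthesis, had 1425 FPKM in control and 2031 FPKM in irradiated fruit bodies. Porphobilinogen deaminase (HEM3, TBIU009306), the next step, had 75.3 and 31.2 FPKM, a log2 ratio of -1.24 with an interval of -1.69 to -1.0. Ferrochelatase (fech, TBIU024281), which puts iron into heme, had 50.2 and 33.8 FPKM (log2 ratio -0.56). The remaining HEM3 genes had log2 ratios of -0.52 (TBIU012857) and -0.43 (TBIU019534), so all 3 assembled genes of this name had ratios below 0. The interval of TBIU012857, -0.45 to 0.08, covered 0. Whether the 3 are pieces of 1 gene was not tested.

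Among enzymes that carry iron-sulfur clusters, 5 of 7 genes were above and 2 below a ratio of 0. Their median log2 ratio was 0.54, beside 0.10 for all 8249 genes. By 2-fold or more, 1 was higher and 0 were lower, beside 9.32% and 8.68% of all genes, so these counts are near the background for so few genes. A dihydroxy-acid dehydratase of branched-chain amino acid synthesis (ilvD, TBIU040523) was the 1 gene at least 2-fold higher, at 198 and 499 FPKM (log2 ratio 1.33). It had 811 scaled reads, few for that FPKM, so it may be a short piece. The other ilvD gene (TBIU015307) went the other way, at 10.1 and 7.62 FPKM from 314 scaled reads (log2 ratio -0.37, interval -0.82 to -0.15). Homoaconitase of lysine synthesis (LYS4, TBIU006614) had 42.0 and 77.6 FPKM (log2 ratio 0.87), while the isopropylmalate dehydratase of leucine synthesis (LEU1, TBIU067111) had 227 and 160 FPKM (log2 ratio -0.50). The assembly factors matched under other names had a median of -0.44 over 3 genes. Of them DRE2 (TBIU005296), an electron donor for cytosolic cluster assembly, had 196 and 118 FPKM (log2 ratio -0.73).

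The words for copper enzymes and their assembly factors met 6 genes of 100 or more scaled reads, of which 5 were above a ratio of 0, 1 was higher by 2-fold or more and 1 was lower. Over all genes of that depth 9.32% were higher by as much and 8.68% were lower, so these counts are near the background for so few genes. The higher gene of the 6, met by the words amine oxidase, has a description that names no copper, so its place in this list is uncertain. This gene, described as a bifunctional amine oxidase (DDB_G0291301, TBIU020209), had 260 FPKM in control and 888 FPKM in irradiated fruit bodies (log2 ratio 1.77, interval 1.66 to 1.74). Copper amine oxidase 1 (cao1, TBIU016880) had 43.6 and 81.0 FPKM (log2 ratio 0.88), and the copper-zinc superoxide dismutase SOD1 (TBIU010801) had 134 and 186 FPKM (log2 ratio 0.47). Galactose oxidase (GAOA, TBIU022048), a copper enzyme, was the 1 lower gene, at 33.1 and 13.4 FPKM (log2 ratio -1.25). Its interval of -0.63 to -0.23 lay within 2-fold, so the FPKM gap of this gene, summed over 6 isoforms, exceeds that of its reads. The other metal transporters, 4 of them magnesium transporters of the NIPA group, had 0 of 6 genes at least 2-fold apart.

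**Figure D5:**
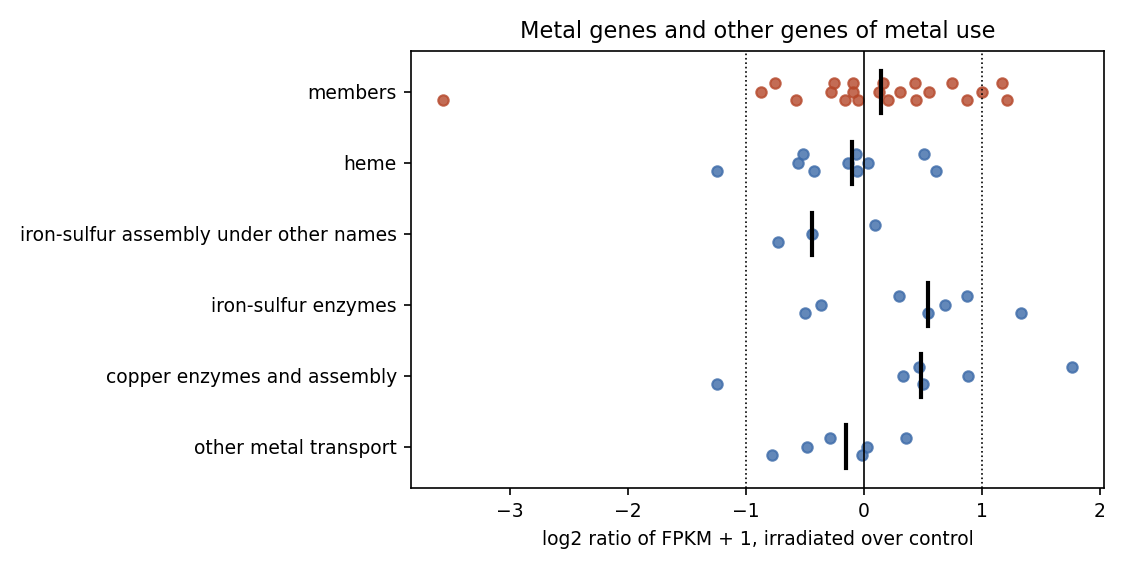
Log2 ratio of FPKM + 1, irradiated over control, for the 22 metal genes and the 5 lists of other genes of metal use, each point a gene with 100 or more scaled reads and each black bar the median; dotted lines mark 2-fold. Medians run from -0.44 for iron-sulfur assembly under other names to 0.54 for iron-sulfur enzymes, and single genes of each list spread widely around them.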

How the data were processed

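RNA from fruit bodies was deposited as 1 table of 57717 assembled transcripts, of which 21855 have a Swiss-Prot description. The authors deposited FPKM per transcript, to 2 decimals. Columns were matched to samples by the sample descriptions that the headers repeat. The authors also deposited 2 scaled values per transcript without sample names, another measure whose unit the headers do not state, and a log2 fold change that equals their log2 ratio where both are above 0, within rounding. A p-value and a q-value from an unstated test of the authors come with each transcript, per the file headers. The sources used here name no assembler, aligner or quantification tool.

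Isoforms were summed by assembled gene, undescribed ones included. Ratios used FPKM + 1, counts used genes with 100 or more scaled reads, and 2-fold was the size that counted. Intervals are exact Clopper-Pearson 95% on rounded scaled values, and some FPKM ratios lie outside them. Implied lengths were computed from FPKM and scaled values. Summing FPKM gives short isoforms much weight. Every metal gene with 100 or more scaled reads was named, a choice widened after values were seen from one that took the 2-fold genes, the 2 most abundant per role and small roles. Genes of 20 to 99 reads and isoforms were added then too. Members, roles and lists were chosen with earlier results of these data known. The code for counts and intervals was tried on simulated counts with known shifts. FPKM there was derived from those counts by a fixed factor per gene. The trial therefore could not test the gaps between FPKM ratios and intervals seen in these data. Python 3.11.15, pandas 2.3.3, scipy 1.17.1 and matplotlib 3.10.9 were used. No sequence or genome coordinate was used here.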

Additional observations from a re-analysis of the deposited data

How the results depend on the processing

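No paired analysis was possible because each group had 1 library, and for the same reason no library could be left out. The count of 3 metal genes at least 2-fold higher was 2 with median-centred ratios, with 5 FPKM added, with the scaled values and with a length trend removed. It became 5 with a minimum of 20 scaled reads, 5 with a mean of 10 FPKM in place of reads, and 43 with no filter. The count of 1 lower gene became 4 with 20 scaled reads, 24 with no filter and 2 with the length trend removed, where FRE3 TBIU006796 reached -1.02. The looser filters let in shallower genes. Among all genes, the shares at least 2-fold higher and lower were 32.7% and 27.3% with no filter, and 11.3% and 11.7% with 20 scaled reads. They were 12.6% and 12.1% with a mean of 10 FPKM, and 6.1% and 6.5% with 5 FPKM added. With the scaled values they were 8.56% and 10.35%, and with the length trend removed 7.4% and 10.2%. Centring turned 9.32% higher and 8.68% lower over all genes into 7.25% and 10.3%. The median of the metal genes ran from -0.05, with the isoform with the most reads alone or with 20 scaled reads, to 0.43 with no filter. The medians of all genes in these 3 settings were 0.11, 0.07 and 0.13. An alternative chosen after seeing the data, summing only transcripts whose own description is a metal one, gave 2 higher and 1 lower of 21 genes, and turned the fio1 gene from 1.22 to -2.06, with its irradiated level listed at 0. It moved FRE3 TBIU006796 from -0.87 to -0.03. The alternatives that only change which genes are counted leave single ratios as they are. Of the 127 values of the 22 genes that an alternative did change, 122 kept their sign and 5 did not. Values that differ only in the FPKM added keep their sign by construction, so this count overstates stability. The 5 changed values of FRE3 TBIU051249 ran from -3.99 to -2.58.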

Other observations

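Several of the shallow metal genes are named for bacterial proteins. The ferrous iron transporter gene feoB (TBIU048186) had 0 FPKM in control and 2.70 FPKM in irradiated fruit bodies. The ferrichrome receptor genes fhuA (TBIU066251) and fcuA (TBIU033085), which import siderophores across bacterial outer membranes, had 2.71 and 1.98 FPKM, and 3.79 and 0 FPKM. The iron-sulfur scaffold iscU (TBIU028883) was listed at 0 and 8.92 FPKM, from 1.94 scaled reads. Whether these transcripts are fungal was not tested.

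A pair of metal genes in 1 assembly cluster, zrt1 TBIU001630 and ZRT2 TBIU001629, differed in opposite directions. The first had 6.73 and 1.08 FPKM, and the second had 0 and 6.49 FPKM, from 8.71 scaled reads. Summed, the pair had 6.73 and 7.57 FPKM but scaled values of 44.5 and 15.5, so the direction of the sum depends on the measure. Whether they are forms of 1 gene was not tested.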
